A study of Drosophila melanogaster with 37 samples.

Results

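Binding of the GAGA factor (GAF) was followed in S2 cells, a male cell line of Drosophila melanogaster, after RNA interference against GAF itself. The comparison holds 5 peak lists of chromatin immunoprecipitation with a rabbit anti-GAF antibody, out of 37 samples of the series, 25 of which have a peak list. Of these, 2 lists are from cells given dsRNA against GAF (replicates 1 and 2), and 3 are from control cells given dsRNA against GFP (replicates 1, 2 and 3). The lists were chosen by their labels for antibody and RNAi, not by any measured value. All cells received 4.5 ug/mL of dsRNA, and the labels do not say whether replicates were separate cultures, so p values here measure the spread between libraries, which may be technical.

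GAF, the product of the Trl gene, is a zinc-finger protein that binds GAGA repeats in DNA, mainly at promoters, where it helps to keep chromatin open. CLAMP, another GA-binding zinc-finger protein, recognises closely related sequences and recruits the MSL dosage compensation complex to the male X chromosome. RNAi lowers a protein by destroying its mRNA, so a knockdown of GAF asks how much GAF stays on its sites when the protein is short. Neither GAF mRNA nor GAF protein was analysed here, and the anti-GAF lists themselves are the only reading of the knockdown.

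The lists did not show a shared loss of GAF regions in the libraries labelled GAF RNAi. Over the 6 chromosome arms (X, 4 and both arms of 2 and 3), GFP RNAi replicates 1, 2 and 3 held 29233, 3543 and 2676 peaks. GAF RNAi replicates 1 and 2 held 4220 and 18267 peaks, both inside the control range. The libraries of GAF RNAi differed from each other by more than the group means did, and the ratio of geometric means was 1.35 in favour of GAF RNAi (exact two-sided permutation p = 1, n = 2 and 3, where 0.2 is the smallest p possible, adjusted over 12 tests 1). That ratio fell below 1 when control replicate 2 or 3, or GAF RNAi replicate 2, was left out (log2 differences −0.01, −0.21 and −0.63), so it has no stable direction.

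What a read was worth differed between the libraries. MACS2 stores for each region a fold enrichment, the pileup of reads at the summit plus 1 over the local background plus 1, and a Poisson p of the same pair of values. Solving both gave whole reads for 100% of regions in 4 lists and all but 2 regions in GAF RNAi replicate 2. One read added 1 to the pileup in GFP RNAi replicate 1, 0.128 in replicate 2 and 0.118 in replicate 3. In GAF RNAi replicates 1 and 2 one read added 0.927 and 0.576. Counted in unscaled reads, the background over a point of the genome was 20.2, 15.1 and 25.6 in the GFP RNAi libraries and 28.5 and 19.8 in the GAF RNAi libraries. GFP RNAi replicates 2 and 3, whose reads were scaled down furthest, also had the 2 shortest lists. The highest −log10 p showed the same split, with 309, 37.3 and 31.2 in GFP RNAi replicates 1 to 3 against 268 and 289 in GAF RNAi replicates 1 and 2. The part of this scaling in the number of peaks was not tested.

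**Figure D1:**
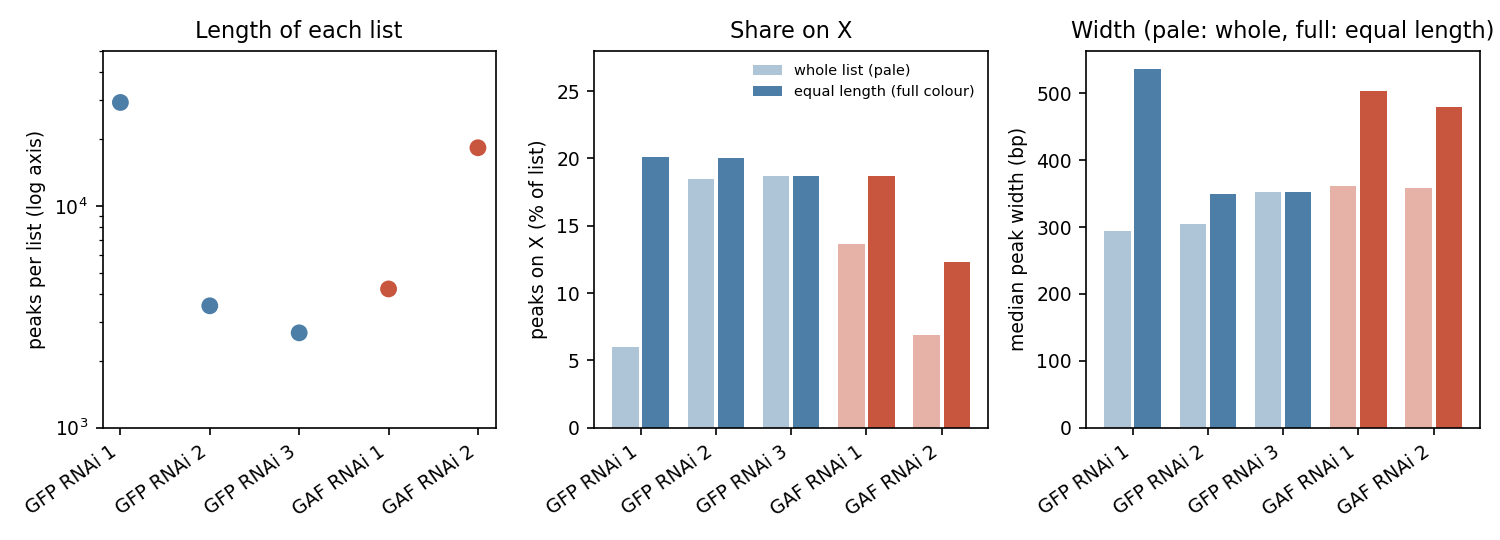
Number of peaks on the 6 arms (points, log axis), share of peaks on X and median peak width for the 3 GFP RNAi lists (blue) and the 2 GAF RNAi lists (red). Pale bars are whole lists and full bars are lists cut to the 2676 regions of highest fold enrichment. GAF RNAi replicate 2 has the lowest share on X at equal length, 12.3%.

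Arm shares were compared next, because the X chromosome of male cells carries the MSL complex. In whole lists X held 6.02%, 18.5% and 18.7% of peaks in GFP RNAi replicates 1 to 3. It held 13.6% and 6.90% in GAF RNAi replicates 1 and 2. The 2 longest lists, one of each group, were the 2 with the lowest X share. The groups overlapped, and the mean difference was −4.12 points (10.3% ± 4.77, SD, n = 2, against 14.4% ± 7.26, SD, n = 3; exact permutation p = 0.6, adjusted 0.655).

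At equal length the X share separated 1 library rather than a group. Each list was cut to its 2676 regions of highest fold enrichment, the length of the shortest list. X then held 20.1%, 20.1% and 18.7% in GFP RNAi replicates 1 to 3, 18.7% in GAF RNAi replicate 1 and 12.3% in GAF RNAi replicate 2. GAF RNAi replicate 1 had 501 of its 2676 regions on X, the same number as GFP RNAi replicate 3, and GAF RNAi replicate 2 had 330. The mean difference was −4.10 points (exact permutation p = 0.4, n = 2 and 3, adjusted 0.6), and −0.91 points without GAF RNAi replicate 2. Arm 2L moved the other way in that library, with 21.8% of its regions against 16.0% to 17.8% in the other 4 lists. Chromosome 4, the small heterochromatin-rich arm, held 21 regions in GAF RNAi replicate 1 and 7 to 9 in each of the others.

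Peaks were somewhat wider in the libraries labelled GAF RNAi when whole lists were used. Median widths were 294, 305 and 353 bp in GFP RNAi replicates 1 to 3 and 362 and 359 bp in GAF RNAi replicates 1 and 2. Both GAF RNAi values lay above all control values, by at least 6 bp, and the mean difference was 43.2 bp (361 ± 2.12 bp, SD, n = 2, against 317 ± 31.4 bp, SD, n = 3; exact permutation p = 0.2, the smallest possible, adjusted 0.48). At equal length the medians were 537, 349 and 353 bp against 504 and 480 bp, and the groups overlapped (exact permutation p = 0.6, n = 2 and 3, adjusted 0.655). The 2 lists whose reads were scaled below 0.2, both of GFP RNAi, then had the narrowest regions. These 2 were also the narrowest at the 1733 sites called in all 5 lists. Median widths there were 645, 409 and 401 bp in GFP RNAi and 603 and 509 bp in GAF RNAi (exact permutation p = 0.6, n = 2 and 3, adjusted 0.655). The part of the scaling in width was not tested.

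Agreement between lists set GAF RNAi replicate 2 apart from the other 4 libraries. At equal length, GFP RNAi lists found 84.3% to 91.5% of their regions in one another. GAF RNAi replicate 1 had 82.5%, 79.7% and 82.3% of its regions in GFP RNAi replicates 1, 2 and 3, which in turn had 84.8%, 87.7% and 89.9% of theirs in it. GAF RNAi replicate 2 had 59.0%, 55.5% and 55.3% of its regions in the GFP RNAi lists and 56.1% in GAF RNAi replicate 1. The 2 libraries of GAF RNAi were therefore the pair of lowest agreement, with a mean of both directions of 54.7%.

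**Figure D2:**
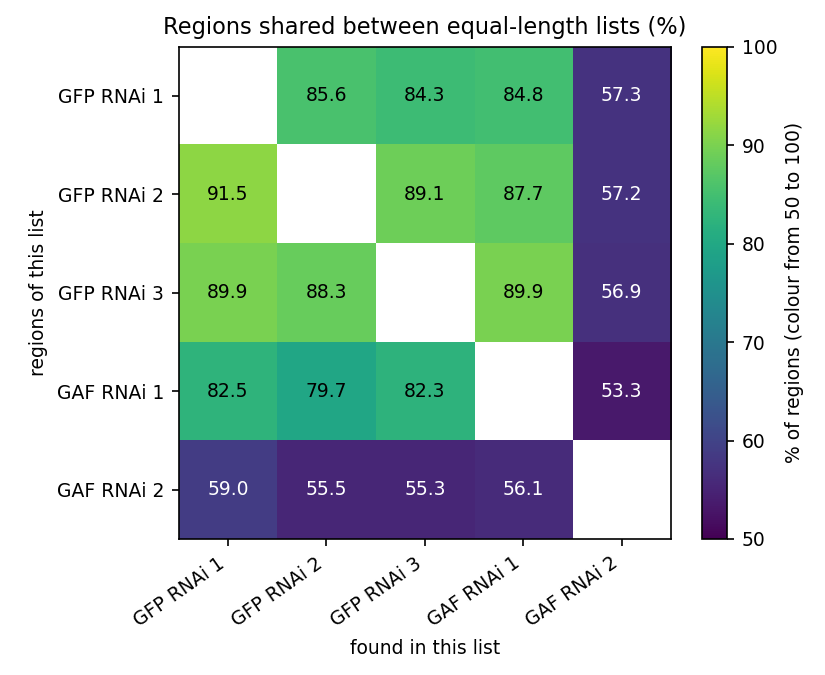
Percentage of the 2676 strongest regions of the list in each row that share at least 1 bp with the list in each column. Every cell in the row and column of GAF RNAi replicate 2 lies between 53.3% and 59.0%, while all others lie between 79.7% and 91.5%.

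Pairs of the same RNAi agreed on average in 79.8% of regions and pairs of different RNAi in 70.7%. The difference of 9.09 points had an exact one-sided permutation p of 0.1, the smallest possible with 10 groupings (adjusted 0.48). Leaving out GAF RNAi replicate 2 gave 3.62 points, leaving out its partner 31.2 points, and leaving out GFP RNAi replicate 2 gave −0.0888 points. In whole lists, where shares depend on length, 96.8% of the peaks of GFP RNAi replicate 3 were in GFP RNAi replicate 1 and 8.36% of the peaks of replicate 1 were in replicate 3. The whole-list difference was 4.16 points (exact permutation p = 0.2, adjusted 0.48), and it turned to −7.66 and −5.69 points with GFP RNAi replicate 2 or 3 left out.

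Most GAF sites of control cells were still called after GAF RNAi. Regions of the 5 lists merged into 39281 sites, of which 2288 were called in every GFP RNAi list. GAF RNAi replicate 1 called 2194 of them (95.9%), GAF RNAi replicate 2 called 1775 (77.6%), and both called 1733 (75.7%). As a comparison that treats every library alike, each list was asked for the sites that all of the other 4 lists called. GFP RNAi replicates 1 to 3 held 100%, 99.7% and 91.5% of such sites, GAF RNAi replicate 1 97.6% and GAF RNAi replicate 2 79.0%. The mean difference was −8.74 points (exact permutation p = 0.4, n = 2 and 3, adjusted 0.6), and 0.230 points without GAF RNAi replicate 2. At equal length the same shares were 100%, 97.2% and 98.2% in GFP RNAi and 97.5% and 68.0% in GAF RNAi (exact permutation p = 0.4, n = 2 and 3, adjusted 0.6).

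Loss of calls in GAF RNAi replicate 2 grew as sites became weaker. The 2288 control sites were divided into 10 bins by mean fold rank in the GFP RNAi lists. In the strongest bin GAF RNAi replicate 1 called 100% and replicate 2 98.7%. In the 5th bin they called 100% and 84.3%, and in the weakest bin 76.0% and 44.1%. The 3 GAF lists of CLAMP RNAi, libraries that the bins did not use, called 75.5% to 91.7% of the weakest bin. GAF RNAi replicate 1 was inside that range and replicate 2 was below it. Over all bins the GAF lists of CLAMP RNAi called 98.2%, 95.5% and 98.9% of the sites.

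**Figure D3:**
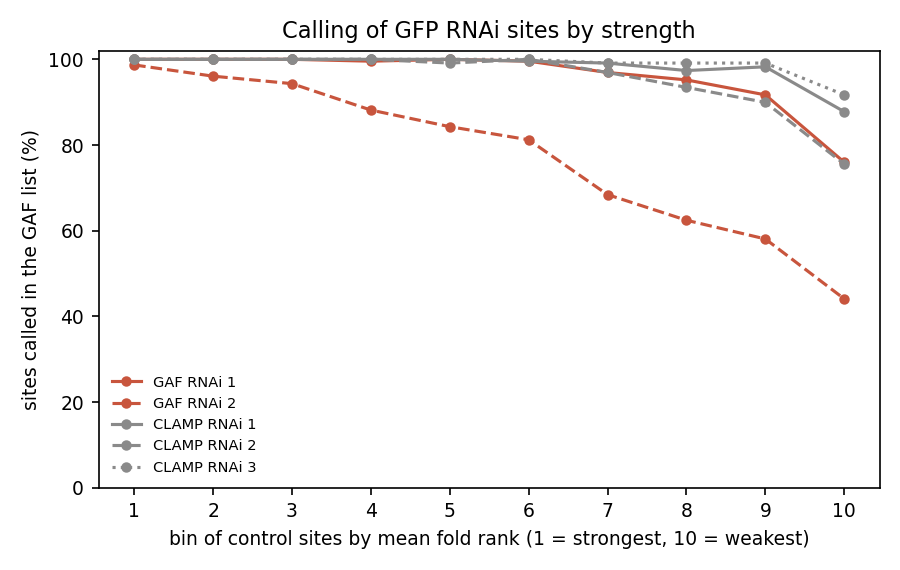
Percentage of the sites called in every GFP RNAi list that were called in each GAF list of GAF RNAi (red) and CLAMP RNAi (grey), by bin of mean fold rank in GFP RNAi. GAF RNAi replicate 1 runs with the grey lines, from 100% to 76.0%, and GAF RNAi replicate 2 falls from 98.7% to 44.1%.

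Regions found in 1 equal-length list alone had fewer reads than shared ones in every library, and GAF RNAi replicate 2 had the most of them. Of its 2676 strongest regions, 1071 were in none of the other 4 equal-length lists, against 148, 68 and 64 regions in GFP RNAi replicates 1 to 3 and 290 in GAF RNAi replicate 1. Of the 1071, 26 were on X (2.43%) and 304 on 2L (28.4%), whereas 304 of its 1605 shared regions were on X (18.9%). In GAF RNAi replicate 1, 8.62% of the unshared regions were on X and 32.4% on 2L, and in GFP RNAi 14.1% to 20.6% were on X. A median of 79 reads lay over the summit of an unshared region of GAF RNAi replicate 2 and 255 over a shared one, and in the other 4 lists the medians were 65 to 94 and 180 to 221. In GAF RNAi replicate 2 median fold enrichment was 3.45 and 5.95, and no unshared region exceeded 5.27.

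The unshared regions were also looked up in the lists of the other antibodies. MSL3 is a subunit of the MSL complex, and its lists hold broad regions. The MSL3 list of GAF RNAi with the same replicate number, 2, covered 97.8% of the 1071 regions and 35.8% of the 1605 shared ones. MSL3 lists of GAF RNAi replicates 1 and 3 covered 63.9% and 79.1% of the unshared regions and 24.5% and 9.41% of the shared ones. These MSL3 lists cover 30.1, 28.4 and 20.8 Mb (replicates 1, 2 and 3), and the arm where the complex acts, X, held 26 of the unshared regions. The MSL3 lists of GFP RNAi covered 45.3%, 37.3%, 1.21% and 40.3% of the unshared regions and 9.60%, 3.05%, 0.436% and 37.4% of the shared ones (replicates 1 to 4), so in replicate 4 the shares lay close together. The MSL3 lists of GFP RNAi cover 18.8, 8.90, 0.578 and 21.1 Mb (replicates 1 to 4). The GAF and CLAMP lists used here cover 0.612 to 10.3 Mb, less than the MSL3 lists of GAF RNAi but not less than all those of GFP RNAi. The part of coverage in these shares was not tested. GFP RNAi GAF replicate 1, the longest list, held 45.8% of the unshared regions. The other 2 GFP RNAi lists held 2.15% and 0%, and the GAF lists of CLAMP RNAi 0.56% to 2.33%. The 0% was fixed by the definition, since the whole list of GFP RNAi replicate 3 is its equal-length list. GFP RNAi replicates 1 and 2 could hold unshared regions only among their 26557 and 867 regions beyond the strongest 2676. CLAMP lists of GAF RNAi replicates 1 and 2 held 3.55% and 16.9% of the unshared regions, and 56.4% and 54.6% of the shared ones. The CLAMP lists of GFP RNAi replicates 1, 2 and 4 held 2.24%, 1.77% and 26.0% of the unshared regions. Of the shared regions they held 60.9%, 36.4% and 56.9%. Whether these regions hold GAF was not tested.

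**Figure D4:**
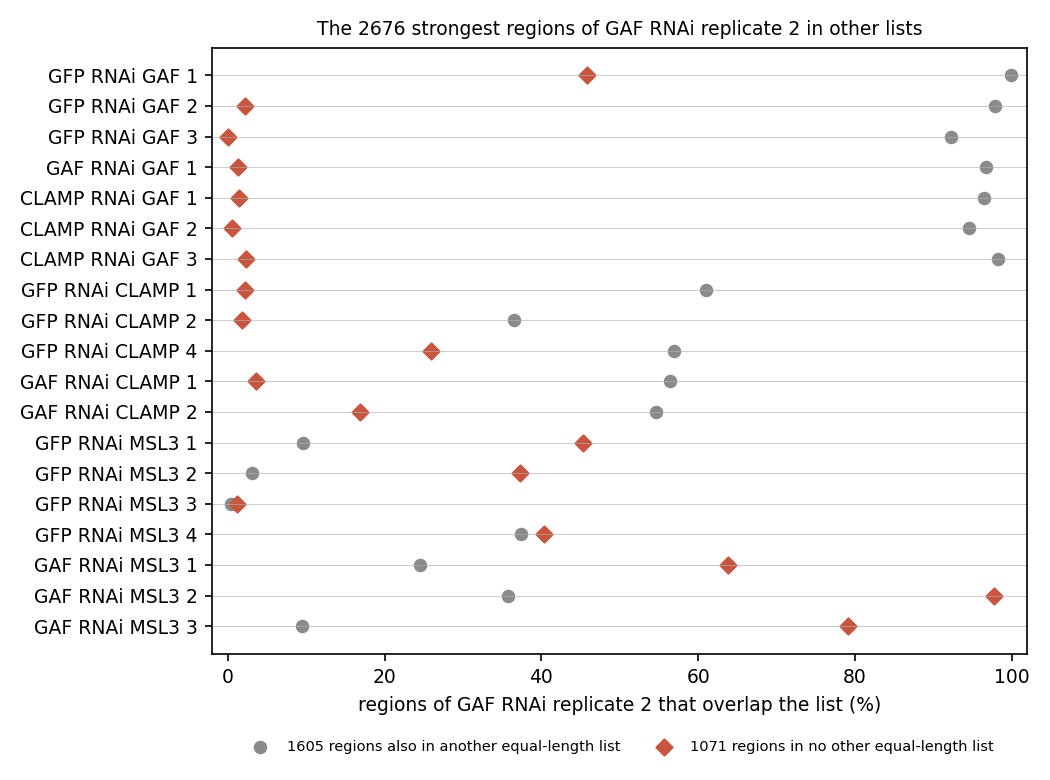
Percentage of the 2676 strongest regions of GAF RNAi replicate 2 that overlap each other list, for the 1605 regions shared with another equal-length list (grey circles) and the 1071 that were not (red diamonds). Shared regions are found in 92.3% or more of cases in every GAF list. Unshared ones are found most often, at 97.8%, in the MSL3 list of GAF RNAi replicate 2. By definition they are absent from the equal-length lists of the other GFP RNAi and GAF RNAi libraries, and so from all of GFP RNAi GAF replicate 3.

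Regions beyond the strongest 2676 had few reads and a low share on X in the 2 longest lists and in GAF RNAi replicate 1. GFP RNAi replicate 1 had 26557 such regions, 1222 of them on X, with a median of 50 reads over the summit. GAF RNAi replicate 2 had 15591, 5.97% of them on X, with a median of 67 reads. Of these, 30.0% and 46.1% were found in any other of the 5 lists. In GAF RNAi replicate 1 there were 1544 such regions, with 4.86% on X, a median of 54 reads and 29.5% found elsewhere, and GFP RNAi replicate 2 had 867, with 13.5% on X. The MSL3 lists of GAF RNAi replicates 1, 2 and 3 covered 61.2%, 76.8% and 69.2% of the further regions of GAF RNAi replicate 2. They covered 63.8%, 42.4% and 63.7% of those of GFP RNAi replicate 1, and 46.3%, 22.3% and 10.6% of those of GAF RNAi replicate 1. The MSL3 lists of GFP RNAi replicates 1 to 4 covered 36.4%, 27.9%, 1.14% and 30.1% of those of GAF RNAi replicate 2. For GFP RNAi replicate 1 these shares were 45.0%, 26.0%, 0.847% and 27.3%, so the order of the 2 longest lists depended on the MSL3 list.

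At the 1733 sites called in all 5 lists, enrichment was lower in both libraries labelled GAF RNAi once the fold was freed of its added 1. Adding 1 to pileup and background lowers the fold most where the pileup was scaled down. The median fold enrichment as the authors deposited it was 7.48, 6.29 and 4.77 in GFP RNAi replicates 1 to 3 and 4.68 and 5.35 in GAF RNAi replicates 1 and 2, and the groups overlapped. Recomputed as summit pileup over local background, the medians were 7.70, 7.85 and 5.58 in GFP RNAi and 4.78 and 5.53 in GAF RNAi. Both GAF RNAi values then lay below all control values, GAF RNAi replicate 2 just below GFP RNAi replicate 3. On the log2 scale the medians averaged 2.36 ± 0.15 (SD, n = 2) against 2.80 ± 0.28 (SD, n = 3), a ratio of 0.738 (exact permutation p = 0.2, the smallest possible, adjusted 0.48). The log2 difference of −0.44 was −0.28 with the deposited fold (p = 0.4 by the same exact test) and −0.29 with the background shared by most regions in place of the local one (p = 0.6), and the groups overlapped in both. It was −0.29 over the sites of the equal-length lists and −0.35 with a −log10 q of at least 5 (exact permutation p = 0.4 for each, n = 2 and 3), where the groups overlapped too.

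**Figure D5:**
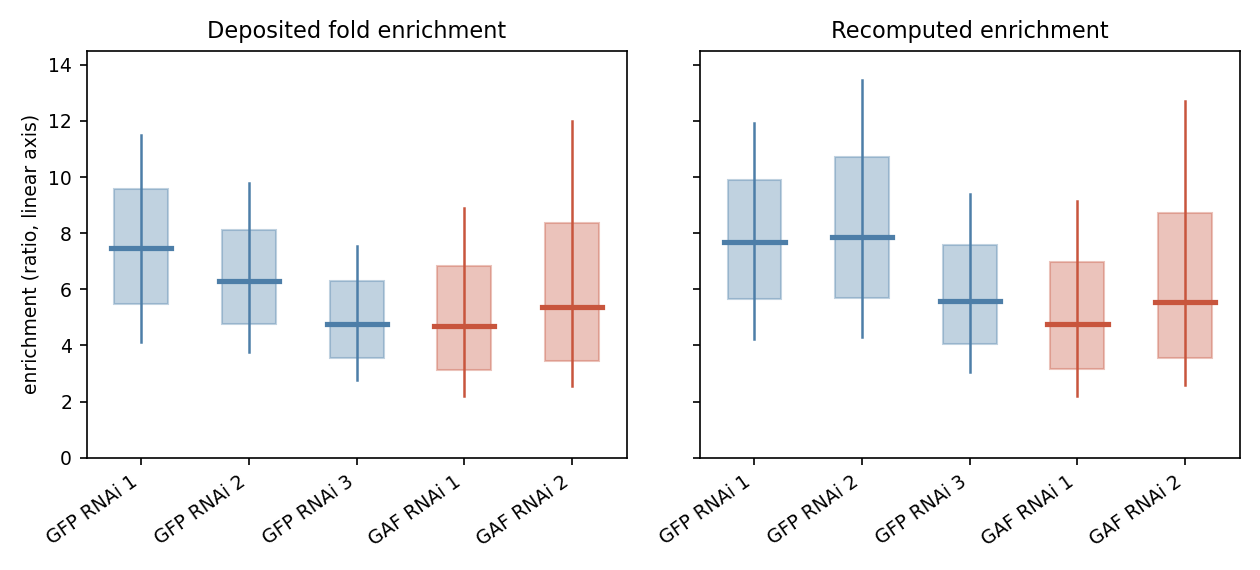
Enrichment at the 1733 sites called in all 5 lists, as deposited (left) and recomputed without the added 1 (right), for GFP RNAi (blue) and GAF RNAi (red) libraries. Thick lines are medians, boxes span the 25th to 75th percentile over sites and thin lines the 10th to 90th. Recomputed medians are 7.70, 7.85 and 5.58 in GFP RNAi and 4.78 and 5.53 in GAF RNAi.

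The ratio was lower at weaker sites. Sites were divided into 3 classes of 577 or 578 by their mean fold rank over all 5 lists. The GAF RNAi values compared here thus helped to form the classes. In the weakest class, medians were 4.94, 5.64 and 3.75 in GFP RNAi and 2.71 and 3.49 in GAF RNAi, a ratio of 0.653 with no overlap of the groups (exact permutation p = 0.2, n = 2 and 3). In the strongest class they were 10.5, 11.2 and 7.99 against 7.41 and 8.93, a ratio of 0.831, and the groups overlapped (exact permutation p = 0.4, n = 2 and 3). The difference between the classes was not tested. Reads over the summit had a ceiling in each library, since the 10 highest regions all lay within 1 read of 388, 316 and 358 in GFP RNAi and of 392 and 506 in GAF RNAi. Between 211 and 430 regions per list were above 90% of it, so differences among the strongest sites could not show fully. On X, 307 of the sites had a ratio of 0.734, and the 1426 on autosomes one of 0.738.

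Counted site by site, recomputed enrichment was lower in both GAF RNAi libraries than in all 3 controls at 498 of the 1733 sites (28.7%), and higher in both at 21 (1.21%). At untied sites the mean share over the 10 possible groupings of the lists is 1 in 10 in each direction. A shift of a whole library enters these counts, so they do not stand apart from the medians given above. With the deposited fold these counts were 375 and 34. The count of lower sites was 908 with GFP RNAi replicate 3 left out, and 762 and 1275 with GAF RNAi replicate 1 or 2 left out, and the higher sites ranged from 29 to 370 over the left-out libraries. In the 3 classes, 119, 158 and 221 sites were lower in both, from strongest to weakest. For comparison, the 3 GAF lists of CLAMP RNAi had medians of 9.18, 7.81 and 6.78 at the 1685 sites called in all 8 GAF lists. GFP RNAi had 7.78, 7.90 and 5.65 there. GAF RNAi replicate 1 had 4.90 and replicate 2 had 5.60, just below GFP RNAi replicate 3, an order that was not tested.

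The order of sites by strength was compared next. Fold ranks among the 1733 sites had Spearman coefficients of 0.595, 0.658 and 0.578 between pairs of GFP RNAi lists. GAF RNAi replicate 1 had 0.704, 0.477 and 0.651 with GFP RNAi replicates 1, 2 and 3, and GAF RNAi replicate 2 had 0.515, 0.38 and 0.379. The GAF RNAi libraries had 0.434 with each other. These describe sites of the same libraries, which are not independent. Pairs of the same RNAi exceeded pairs of different RNAi by 0.05 in the mean coefficient (exact one-sided permutation p = 0.2, adjusted 0.48), a difference that turned without GFP RNAi replicate 2 or 3 (−0.015 and −0.0013).

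No site changed its rank past the threshold. With limma on the normal scores of the ranks, 0 of 1733 sites (0%) were higher and 0 (0%) lower at a Benjamini-Hochberg adjusted p under 0.05. The smallest adjusted limma p was 0.478. An unadjusted limma p under 0.05 was reached by 107 sites (6.17%), where a share of 0.05 would pass on average without any effect. Blocking on replicate number gave 2 sites, 1 in each direction. Ranks were stronger in both GAF RNAi lists than in all controls at 189 sites (10.9%) and weaker at 210 (12.1%). Both shares lie near 1 in 10, the mean over the 10 possible groupings of the lists. That mean is fixed, since at every untied site 1 pair of lists ranks strongest and 1 pair weakest. Whether the shares exceed it was not tested. X held 23 of the 189 (12.2%) and 46 of the 210 (21.9%), and 17.7% of all 1733, shares that were not tested either.

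The 10 sites with the best mean rank over the 5 lists were called in every list by definition. All but 1 were on X, which held 17.7% of the 1733 sites. Each of the 10 was also called in the 3 GAF lists of CLAMP RNAi, as were 97.3% of the 1733. The first, at chrX:10440581-10442003, ranked 63.5, 24 and 22 in GFP RNAi replicates 1 to 3 and 56 and 24 in GAF RNAi replicates 1 and 2. Its summit carried 344, 284 and 304 reads in GFP RNAi and 349 and 481 in GAF RNAi, and its recomputed enrichment was 13.7, 17.7 and 11.9 against 11.2 and 18.5. Reads were highest in the GAF RNAi libraries, while ranks and enrichment overlapped between the groups. The second, chrX:18298399-18298986, had deposited folds of 16.1, 12.6 and 9.68 in GFP RNAi and 10.8 and 11.7 in GAF RNAi. Its ranks were 7, 11 and 8 against 54.5 and 189, weaker in both GAF RNAi lists.

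The remaining strongest sites did not move one way. The autosomal member, chr3L:13912817-13913421, had folds of 15.2, 12.3 and 7.71 in GFP RNAi and 10.3 and 15.8 in GAF RNAi. The site chrX:9177592-9178763 ranked 26.5, 265 and 28 in GFP RNAi and 9 and 5 in GAF RNAi, stronger in both. At chrX:13535618-13536393, GAF RNAi replicate 2 gave it rank 2 and GAF RNAi replicate 1 rank 114.5, on either side of most controls at 10.5, 254 and 33. The site chrX:7950230-7952283 ranked 28, 56 and 26.5 in GFP RNAi and 143 and 216 in GAF RNAi, weaker in both. The other members were chrX:8314722-8315634, chrX:4511247-4511757, chrX:2536447-2537468 and chrX:4218544-4219560. Their ranks ran from 9 to 203 in GFP RNAi and from 41.5 to 247 in GAF RNAi, and the groups overlapped at each.

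Among the sites weaker in rank in both GAF RNAi lists, the largest shift was at chr2R:17066293-17067050. It ranked 206, 405 and 378 in GFP RNAi and 1409 and 1524 in GAF RNAi, and its deposited fold was 11.1, 8.29 and 6.53 against 2.69 and 2.69. Reads over its summit were 290, 251 and 241 in GFP RNAi and 112 and 311 in GAF RNAi, so GAF RNAi replicate 2 had the most reads of the 5 at this site and a low fold. At chr2L:7795734-7796266 the reads were lower in both, with 231, 188 and 227 against 71 and 95, and recomputed enrichment was 11.4, 12.5 and 8.86 against 2.49 and 4.79. The site chr3R:6712151-6713030 had 10.9, 15.6 and 8.44 against 4.76 and 3.07. The other named sites of this kind, chr2R:20831856-20833229 and chr2R:12990066-12991191, had 7.01 to 13.6 in GFP RNAi and 1.94 to 3.37 in GAF RNAi. All of these named sites were called in the 3 GAF lists of CLAMP RNAi, as were 97.3% of the 1733 sites.

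Among the sites stronger in rank in both GAF RNAi lists, chr3R:6447780-6448548 led. It ranked 1503, 1651 and 1398 in GFP RNAi and 381 and 436 in GAF RNAi, with recomputed enrichment of 4.54, 3.61 and 4.01 against 7.38 and 8.64. This site was called in 3 of 3 CLAMP control lists and 3 of 4 MSL3 control lists. Of the 1733 sites, 52.5% were in at least 2 CLAMP control lists, and the MSL3 control lists held 12.2%, 4.44%, 0.519% and 43.6%. It was called in 2 of the 3 GAF lists of CLAMP RNAi, where 97.3% of the 1733 sites were in all 3. The site chr3L:13927938-13928529 had 2.77, 3.43 and 3.34 in GFP RNAi, 11.1 in GAF RNAi replicate 1 and 4.09 in GAF RNAi replicate 2, so its shift rested mostly on 1 library. At chr3L:21272447-21273856 the larger value was in the other library, with 5.71, 4.54 and 3.81 against 5.02 and 17.9. The site chr3R:6177389-6178283 had deposited folds of 6.13, 4.08 and 2.78 in GFP RNAi and 5.83 and 14.0 in GAF RNAi. At chr2R:9224500-9225819 recomputed enrichment was 8.46, 4.64 and 3.18 against 7.80 and 12.3. At these 3 sites GAF RNAi replicate 1 lay below GFP RNAi replicate 1, so the ranks separated the groups and the enrichment did not.

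Sites lost altogether were few and weak. Of the 2288 sites called in every GFP RNAi list, 52 (2.27%) were in neither GAF RNAi list. X held 11 of the 52 (21.2%), near its 17.7% of the sites called in all 5 lists, shares that were not tested. The lost sites carried medians of 74.5, 95 and 103 reads over the summit in GFP RNAi replicates 1 to 3. Sites called in all 5 lists carried 252, 235 and 254 there. Median width of the lost sites, merged from 3 lists, was 313 bp, against 771 bp for sites merged from 5 lists, an unlike basis. Within single GFP RNAi lists the sites called in all 5 lists had median widths of 401 to 645 bp. Other GAF libraries still called most of them, though fewer than of the sites called in all 5 lists. All 3 GAF lists of CLAMP RNAi held 28 of the 52 (53.8%), against 1686 of the 1733 sites called in all 5 lists (97.3%). None of the 3 held 3 of the lost sites (5.77%) and 6 of the 1733 (0.346%). CLAMP lists held fewer of them: 11 of the 52 (21.2%) were in at least 2 CLAMP control lists, against 909 of the 1733 (52.5%).

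The lost site of best mean rank was chrX:6699620-6699904, with folds of 5.00, 6.20 and 2.92 and 91 to 134 reads in GFP RNAi replicates 1 to 3. It was followed by chr3L:5800931-5801245, with folds of 3.45, 5.76 and 3.19, which all 3 CLAMP control lists also held. The others were chr2L:16548101-16548478, chr2R:7120336-7120632 and chr3R:10811890-10812182, with folds of 2.96 to 5.43 over the 3 libraries. At equal length 72 of 2028 sites (3.55%) were lost. The lost sites of whole lists were 339 with GFP RNAi replicate 3 left out, 554 and 95 with GAF RNAi replicate 1 or 2 left out, and 1 when regions needed a −log10 q of at least 5.

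Sites gained were also weak. Of the 2010 sites called in both GAF RNAi lists, 33 (1.64%) were in no GFP RNAi list, and 1 of the 33 was on X (3.03%), near the share of 4.86% and 5.97% among the regions of these lists beyond the strongest 2676. They carried medians of 54 and 69 reads in GAF RNAi replicates 1 and 2, against 229 and 257 at sites called in all 5 lists. None was in all 3 GAF lists of CLAMP RNAi, and 30 were in none of them, against 1686 and 6 of the 1733 sites called in all 5 lists. The MSL3 lists of GAF RNAi replicates 1, 2 and 3 covered 75.8%, 81.8% and 48.5% of the gained sites, and 28.4%, 34.1% and 12.7% of the sites called in all 5 lists. The MSL3 lists of GFP RNAi replicates 1 to 4 covered 33.3%, 9.09%, 0% and 21.2% of the gained sites, against 12.2%, 4.44%, 0.519% and 43.6%, so the order turned in replicates 3 and 4. The first-ranked, chr2R:13150246-13150815, had folds of 2.07 and 3.38, and chr2L:12066670-12066997 had 1.77 and 4.12. The others were chr2L:21683666-21684220, chr2L:17450955-17451408 and chrX:5916872-5917359, with folds of 1.60 to 1.65 in GAF RNAi replicate 1 and 3.28 to 3.61 in replicate 2. At equal length 6 of 1402 sites (0.428%) were gained. The gained sites of whole lists were 108 with GFP RNAi replicate 1 left out, and 9021 and 1331 with GAF RNAi replicate 1 or 2 left out. In each of these settings gained sites outnumbered lost ones, as they did at a −log10 q of at least 5, with 4 against 1, so which count is larger has no stable direction.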

How the data were processed

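Chromatin immunoprecipitation from S2 cells was read as peak lists, 1 per library. Per the submitters' processing notes, reads were processed with Bowtie and MACS2 2.1.1 on build dm3. MACS2 options and the control used are not given in the sources used here. The fold enrichment (a ratio), −log10 p and −log10 q of each region are the authors' deposited values. The summit offset in the deposited lists was read but only positions, fold, p and q entered results. Total read depth is unknown.

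Regions on 6 arms were used, with 1-based dm3 coordinates. Other sequences held 0.0374% to 3.21% of a list. Overlapping regions (1 bp or more) of the 5 lists were merged into sites, and a site takes the fold of its strongest region in each list. Equal-length lists hold the 2676 regions of highest fold. For each list, the background that most regions share was found from repeated p values, the pileup of 1 read from the spacing of the folds, and the reads of each region as the whole number that gave its −log10 p within 0.001 or 0.02%. At least 95.6% of regions had 1 such solution. Enrichment was recomputed as scaled reads over local background, which covers 1732 of the 1733 sites in GAF RNAi replicate 2. Whether duplicate reads were removed is not given in the sources used here.

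Means over libraries were compared by exact permutation over 10 groupings, with Benjamini-Hochberg adjustment over 12 tests. Ranks were tested with limma 3.58.1 in R 4.3.3. Other computations used Python 3.11.15, numpy 2.4.6, scipy 1.17.1, pandas 2.3.3 and matplotlib 3.10.9. The scripts were tested on simulated data.

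Named sites are the 10 of best mean fold rank among sites in all 5 lists, the 5 lost and 5 gained of best mean percentile, and the 5 in each direction with the largest rank shift among sites whose groups do not overlap. The members, measures and rules were chosen with earlier results of these data known, and the recovery of reads was added after seeing the lists. No dm3 sequence or annotation was used, so genes and sequences are not given. Alternatives were leaving out each library, keeping sequences outside the arms, regions with a −log10 q of 5 or more, 50% overlap, 1000 regions per list, order by −log10 q or p, and the replicate number as a block.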

Additional observations from a re-analysis of the deposited data

How the results depend on the processing

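Of 175 recomputed values, 135 kept the direction of the reported value or, for counts, stayed within 1.5 times of it, 10 turned and 30 counts moved further. At equal length the X share (−7.30 to −0.533 points), median width (43 to 146 bp) and recovery (−32.4 to −1.11 points) kept their sign in every alternative but not their size, as did width at common sites (26 to 152 bp). Recomputed enrichment kept its sign, and its log2 difference ranged from −0.62 to −0.28. Left-out libraries gave −0.63 to 1.51 for the log2 number of peaks, −7.66 to 22.6 points for agreement of whole lists, −0.0888 to 31.2 points for agreement at equal length, −0.015 to 0.188 for the rank correlation, −17.6 to 0.230 points for recovery in whole lists and 0 to 1 for sites with a changed rank. They gave 63 to 554 lost and 33 to 9021 gained sites in whole lists, 96 to 730 lost and 8 to 1081 gained sites at equal length, and 554 to 1275 sites of lower and 29 to 370 of higher recomputed enrichment. A −log10 q of at least 5 gave 1 lost and 4 gained sites in whole lists, and 35 and 30 at equal length. Order by −log10 q gave 13 gained sites at equal length, and 1000 regions per list gave 28 lost and 20 gained. Sites of higher enrichment were 34 with the deposited fold and 1 with the background shared by most regions. The cause was not tested, beyond the smaller number of lists or regions in these settings.

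The replicate block (replicates 1 and 2 of each group) gave a log2 difference in peak number of −0.21 and 2 sites with a changed rank, and changed no other call. Same-numbered libraries had deviations correlated at −0.003 and 0.124 over sites, and 2 pairs do not show that the numbers pair the samples. With 3 against 2 libraries no exact permutation test could pass 0.05, and the scaled pileups and the ceiling of reads limit what weak and strong sites can show.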
